A study of Brassica napus with 6 samples.

Results

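Proteins are removed in plant cells mainly along 3 routes. In the ubiquitin route, E1 and E2 enzymes pass ubiquitin to an E3 ligase, which chooses the protein to be tagged, and the proteasome then cuts tagged proteins. RING ligases act on their own or within complexes, whereas F-box and BTB proteins are the exchangeable adaptors of cullin-based ligases. Proteases of the vacuole, the cell wall and the organelles, together with autophagy, make up the other routes, and they are known for recycling protein as leaves and fruit walls age. The genes described here are the 100 genes placed in the protein degradation class of the functional classification, out of 3248 listed genes. They were taken by their class name, which used no measured value, except that 11 genes of the class were left out by rule. These were both copies of the senescence protease SAG12 and 9 genes in the first 6 Mb of C02. No gene of the class lay in the first 6 Mb of A02.

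Walls of rapeseed (Brassica napus) siliques, the pods of this oil crop, were sampled 15 days after flowering from lines of an association population, and their RNA was sequenced. Equal amounts of material from 12 long-silique accessions formed one pool and material from 11 short-silique accessions the other, with 3 libraries from each. Library totals recovered from the table lay between 22892442 and 30259269 reads, and the listed genes held 0.897% to 1.19% of them. Whether libraries of a pool hold separate plants is not stated in the labels. The p-values thus describe the spread between libraries alone, and that spread may be technical. The table lists only genes with a call by the authors, 4.98% of the 65264 genes that their p-values and FDR imply. Every gene described here was therefore selected on this same contrast, and the tests below describe size and spread without being independent evidence. The smallest authors' log2 fold change in the list was 1.0 in size, so genes with smaller differences are absent. The comparison asked which genes differ between the walls of long and short siliques. Values are given as CPM (read counts scaled to the library total) for replicates 1, 2 and 3 in that order, and differences as log2 changes (fitted log2 fold changes of long over short). Calls come from the edgeR quasi-likelihood test and needed a p no higher than 0.005 and, after Benjamini-Hochberg adjustment, no higher than 0.05. In bulk tissue, fewer cells of a type and less RNA per cell cannot be told apart.

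Most of the class stood lower in the long-silique walls. Among the 100 genes, 71 were lower and 29 higher, against 65.6% lower and 34.4% higher among all listed genes. The pools did not overlap for 94 of the 100, against 95.3% of all listed genes. Enough reads for a test were present for 81 genes, and 52 of these were called, 12 higher and 40 lower. Over all 2574 tested genes 66.6% were called, 23.1% higher and 43.5% lower, so the share of calls in the class was near the background. The median fitted log2 fold change was -1.26, against -1.22 for all tested genes. With TMM scaling over the listed genes, which moved log2 changes up by a median of 0.78, all 81 directions stayed as they were but the calls became 24 higher and 8 lower. All counts of higher and lower calls below depend on this choice of scaling. TMM assumes that most genes are unchanged, whereas every listed gene was called different by the authors. Library totals were therefore kept as the main scale.

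The ubiquitin ligases (RING, F-box and BTB) were 45 genes, of which 14 were higher and 31 lower. Of the 35 tested, 3 were called higher and 19 lower. The genes of the 5 protease classes numbered 34, with 9 higher and 25 lower, and of the 30 tested 6 were called higher and 17 lower. The remaining 21 genes, from the proteasome, autophagy, E1, E2, ubiquitin, AAA and unspecified classes, were 6 higher and 15 lower, with 3 and 4 called. Calls were made for 62.9%, 76.7% and 43.8% of the tested genes in these groups, against 66.6% over all tested genes. Among all listed genes 34.4% were higher and 65.6% lower. The median level was 1.17 FPKM (the deposited measure per gene length and library size) for ligases and 0.95 FPKM for the protease classes, against 1.25 FPKM for all listed genes. The difference in direction between ligases and proteases was not tested. With TMM over the listed genes the ligases had 10 higher and 4 lower calls and the protease classes 8 and 4.

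**Figure D1:**
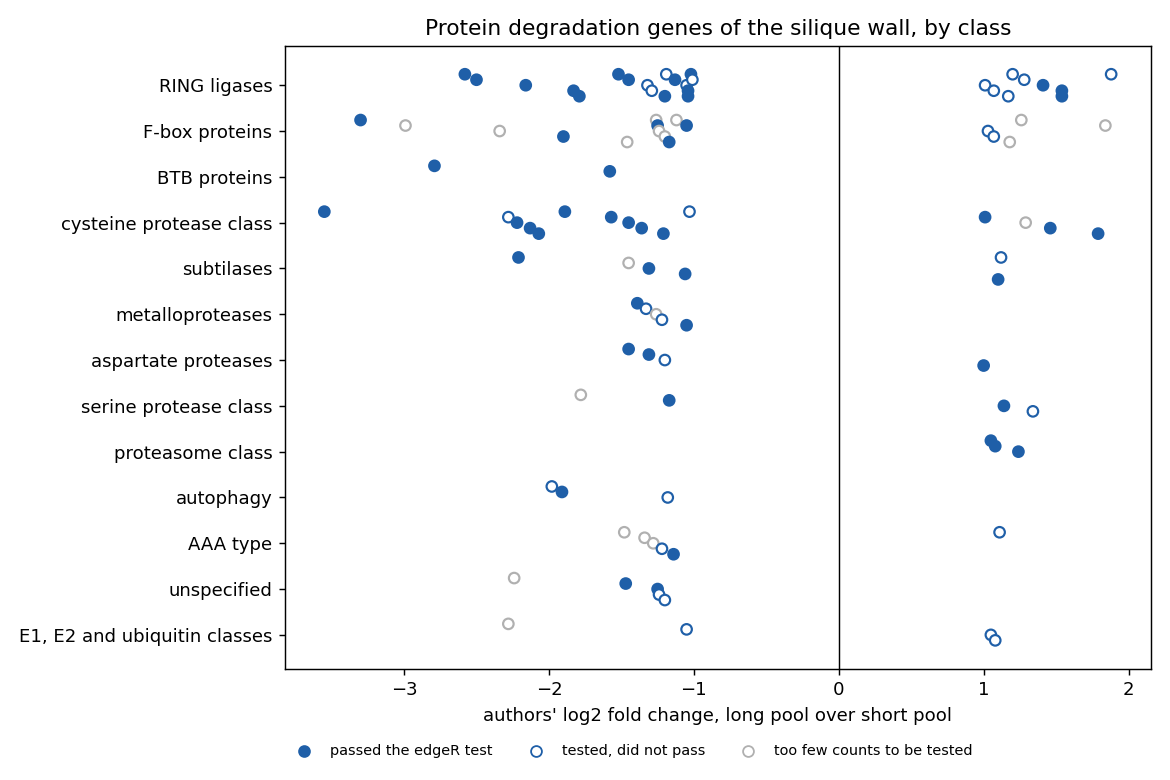
Authors' deposited log2 fold change (long pool over short pool, x axis) of each of the 100 protein degradation genes, in rows by class. Filled points passed the edgeR test, open blue points were tested without passing and grey points had too few counts. All 3 genes of the proteasome class lie right of 0, whereas all genes of the BTB, metalloprotease, autophagy and unspecified classes lie left of it.

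Ubiquitin is first loaded onto E1 and E2 enzymes, and few such genes were listed. BnaA02g15070D, described as the E2 variant UEV1B, a partner of enzymes that build ubiquitin chains, stood at 4.31, 4.96 and 4.11 CPM in the long and at 2.94, 1.74 and 1.697 CPM in the short libraries. The pools did not overlap, but the log2 change of 1.07 ± 0.28 (SE) missed the threshold (edgeR adjusted p = 0.0506). It passed with DESeq2 (adjusted p = 0.0346), with limma-voom (adjusted p = 0.0465), without the filter on low counts and with TMM over the listed genes (edgeR adjusted p = 0.000347). With the replicate block it did not pass (edgeR adjusted p = 0.109). Among the fits that left out 1 library, it was called only without short replicate 1 (0.93 to 1.37 over the 6 fits). The conjugating enzyme UBC29 (BnaA07g03430D) had a log2 change of -1.12 ± 0.34 (SE; edgeR adjusted p = 0.133). The single gene of the E1 class, BnaAnng25700D, is described as subunit 1A of the SUMO-activating enzyme, which acts on the related modifier SUMO. It was read 3 times in the long pool against 35 in the short, 11.2-fold (95% exact counting interval 3.54 to 57.1). The single gene of the ubiquitin class, BnaA03g42970D, is described as a phosphatase with a ubiquitin-like domain. Its log2 change was 1.08 ± 0.31 (SE; edgeR adjusted p = 0.102). Counting intervals and floors cover counting error only.

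RING genes formed the largest class, with 26 genes, all tested, of which 9 were higher and 17 lower. Of these, 3 were called higher and 12 lower, with log2 changes of 1.49 to 2.23 and of -2.91 to -1.05. The smallest p belonged to BnaA08g27180D (A08, 18194735 to 18198115), a copy of the Arabidopsis RING gene AT1G02610. It stood at 0.427, 0.132 and 0.131 CPM in the long and at 1.69, 1.67 and 1.88 CPM in the short libraries. All short libraries were above all long ones, and the log2 change was -2.91 ± 0.45 (SE; edgeR adjusted p = 0.000917). Both other copies of this locus were also called lower. BnaA10g01230D went from 1.71 ± 0.123 CPM in the short to 0.309 ± 0.169 CPM in the long pool (SD, n = 3), a log2 change of -2.42 ± 0.42 (SE). BnaC05g01320D had the highest level of the copies, 3.24 ± 0.442 CPM in the short and 0.883 ± 0.446 CPM in the long pool (SD, n = 3). For this gene the log2 change was -1.89 ± 0.35 (SE), and its call ended without long replicate 1 or long replicate 2 (log2 changes from -2.36 to -1.69 over the fits that left out 1 library).

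Several other RING genes were called lower. BnaC07g45350D, a gene at the locus AT4G35070 whose description in the table names the ligase BOI, stood at 1.67, 1.65 and 1.49 CPM in the long and 5.49, 4.17 and 4.87 CPM in the short libraries. The groups did not overlap, and the log2 change was -1.59 ± 0.26 (SE; edgeR adjusted p = 0.00141). A pair of genes belongs to the loci of RDUF1 and RDUF2, ligases that act in abscisic acid and drought responses of Arabidopsis. The RDUF2 gene BnaA03g09400D stood at 2.02, 1.52 and 1.40 CPM in the long and 4.36, 4.58 and 5.16 CPM in the short libraries, a log2 change of -1.51 ± 0.26 (SE; edgeR adjusted p = 0.00267). The RDUF1 gene BnaCnng37520D had a log2 change of -1.07 ± 0.22 (SE; edgeR adjusted p = 0.00966), and its call ended without long replicate 1 or short replicate 2, at -1.13 to -0.99 over the 6 fits. Of the 7 genes described as ATL proteins, membrane-bound RING-H2 ligases, 6 were lower and 1 higher, and 3 were called lower. The called ones were the gene at AT4G35480 (BnaC07g45620D, -1.88 ± 0.35), ATL5 (BnaC08g32410D, -1.09 ± 0.27) and ATL8 (BnaC06g37160D, -1.05 ± 0.27; log2 change and SE). The call of BnaC07g45620D was made in all 6 fits that left out 1 library. Those of ATL5 and ATL8 remained only without long replicate 2 and only without short replicate 2, respectively.

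The RING genes higher in the long pool were fewer. BnaC03g05510D, a RING gene at AT5G12310 (C03, 2654728 to 2656888), stood at 2.60, 3.73 and 3.23 CPM in the long and 0.628, 1.30 and 1.11 CPM in the short libraries. All long libraries were above all short ones, with a log2 change of 1.65 ± 0.32 (SE; edgeR adjusted p = 0.00645). Its call ended without long replicate 2 (1.40 to 1.87 over the 6 fits). BnaCnng01780D, in the RING class but described as a histone demethylase with a JmjC domain, had 1.15 ± 0.479 CPM in the long and 0.240 ± 0.0938 CPM in the short pool (SD, n = 3). The log2 change of this gene was 2.23 ± 0.48 (SE; edgeR adjusted p = 0.0135), and its call ended without long replicate 2, short replicate 1 or short replicate 3 (1.86 to 2.58 over the 6 fits). BnaCnng02010D, a copy of AT4G01270, stood at 3.38, 4.59 and 3.15 CPM in the long and 0.824, 0.957 and 2.18 CPM in the short libraries. Its log2 change of 1.49 ± 0.35 (SE; edgeR adjusted p = 0.0249) was called without short replicate 3 but in no other fit that left out 1 library, at 1.25 to 2.05. The second copy of that locus, BnaA03g26910D, had a log2 change of 1.46 ± 0.39 (SE; edgeR adjusted p = 0.0611). The 6 RING genes that were higher without a call had log2 changes of 1.08 to 1.80, and the 5 that were lower without a call -1.53 to -1.13.

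**Figure D2:**
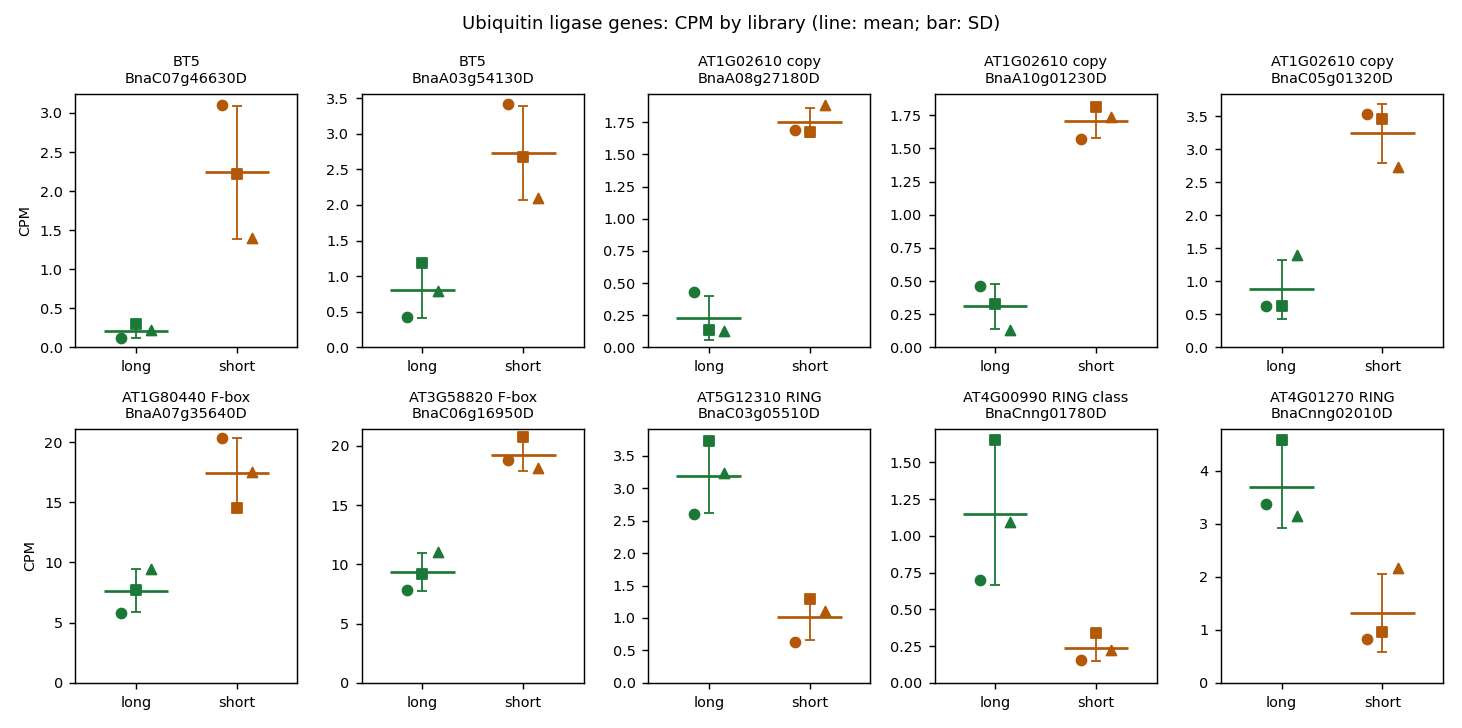
CPM (y axis, from 0, own scale per gene) of 10 ubiquitin ligase genes in the 3 long and 3 short libraries; circles, squares and triangles are replicates 1, 2 and 3, the line is the mean and the bar the SD. In the 7 genes from BT5 to the AT3G58820 F-box gene every short library lies above every long one, and in the last 3 every long library lies above every short one.

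F-box proteins pick the targets of SCF-type ligases, and 17 of their genes were listed, 5 higher and 12 lower. Only 7 had enough counts for a test, and 5 of these, all lower, were called. The class stood low, with a median of 0.30 FPKM. At the higher end was BnaC06g16950D, at the locus AT3G58820 (C06, 19720139 to 19722142), with 20.2 ± 1.45 FPKM in the short and 9.83 ± 1.69 FPKM in the long pool (SD, n = 3). It stood at 7.85, 9.15 and 11.1 CPM in the long and 18.8, 20.8 and 18.1 CPM in the short libraries. The log2 change was -1.04 ± 0.19 (SE; edgeR adjusted p = 0.00380). BnaA07g35640D is the copy of AT1G80440, a kelch-repeat F-box gene whose Arabidopsis product is known to target response regulators of cytokinin signalling and the entry enzyme of phenylpropanoid synthesis. It stood at 5.83, 7.70 and 9.44 CPM in the long and 20.3, 14.5 and 17.5 CPM in the short libraries. Its pools did not overlap, and the log2 change was -1.19 ± 0.22 (SE; edgeR adjusted p = 0.00357). BnaA03g05550D (AT4G22390) had a log2 change of -1.34 ± 0.33 (SE; edgeR adjusted p = 0.0351), called without short replicate 3 but in no other fit that left out 1 library, at -1.58 to -1.13.

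Several F-box genes were read almost entirely from the short pool. BnaA03g10880D, an FBD-associated F-box gene at AT5G56370, had 1 count in each long library and 28, 49 and 38 counts in the short ones. The ratio of short to long was 36.9 (95% exact counting interval 12.3 to 182). BnaC04g43360D (AT1G49790) was read 0 times in the long pool against 40 in the short, at least 12.8-fold lower if the long pool is set to the floor of 3 counts. BnaA09g40700D (AT2G41360), with 0 and 37 counts, was at least 11.9-fold lower. BnaA03g10880D and BnaC04g43360D were called, whereas BnaA09g40700D had too few reads for the test. By the rule of at least 10 counts in every library of one pool and at most 3 in total over the other, 5 of the 100 genes were detected in 1 pool only, all in the short pool, against 4.9% of all listed genes. With library totals as the scale, no F-box gene higher in the long pool was called. BnaA04g14310D (AT5G56400) had a log2 change of 1.17 ± 0.33 and BnaA01g33460D (AT3G04660) one of 1.06 ± 0.32 (SE; edgeR adjusted p = 0.0976 and 0.133). With TMM over the listed genes both were called (edgeR adjusted p = 0.00176 and 0.00233), whereas 2 of the 5 lower F-box calls were left.

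Both BTB genes were copies of BT5, which encodes a BTB and TAZ domain protein, an adaptor of cullin 3 ligases. BnaC07g46630D (C07, 44164232 to 44165923) stood at 0.117, 0.297 and 0.218 CPM in the long and 3.10, 2.22 and 1.40 CPM in the short libraries. For this gene the log2 change was -3.36 ± 0.45 (SE; edgeR adjusted p = 0.000296), called in all 6 fits that left out 1 library. BnaA03g54130D (A03, 28616349 to 28618025) stood at 0.427, 1.19 and 0.786 CPM in the long and 3.41, 2.67 and 2.10 CPM in the short libraries. The groups did not overlap for either copy. The log2 change of the A03 copy was -1.74 ± 0.37 (SE; edgeR adjusted p = 0.0118). Its call ended without long replicate 1, long replicate 3 or short replicate 1 (-2.17 to -1.44 over the 6 fits).

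The proteasome class stood out among the small classes in level, with a median of 8.97 FPKM, and all 3 of its genes were called higher in the long pool. BnaA07g32250D, homolog B of the regulatory lid subunit RPN3 (A07, 22376281 to 22378773), stood at 54.1, 63.4 and 57.1 CPM in the long and 27.3, 26.1 and 31.0 CPM in the short libraries. The log2 change of this gene was 1.05 ± 0.16 (SE; edgeR adjusted p = 0.000705). BnaA05g17000D, subunit beta type 2-A of the proteolytic core, stood at 9.91, 12.3 and 7.86 CPM in the long and 4.36, 3.59 and 4.94 CPM in the short libraries. Its log2 change was 1.23 ± 0.23 (SE; edgeR adjusted p = 0.00444). The third gene, BnaC05g48440D, is described as subunit M of the translation initiation factor eIF3, which shares a domain with proteasome lid subunits. It had a log2 change of 1.07 ± 0.22 (SE; edgeR adjusted p = 0.00934), and its call ended without long replicate 2 or short replicate 2 (0.86 to 1.18 over the 6 fits). Of the 100 genes, 2 are thus described as proteasome subunits. A further listed gene of the proteasome class, BnaC02g02190D, was among those left out by rule on C02. It was also called higher, with a log2 change of 1.31 ± 0.23 (SE; edgeR adjusted p = 0.00239). BnaA07g32250D lies at the end of A07, from 22 to 24 Mb, where 18 of 23 listed genes were higher, against 34.4% of all listed genes. That window also holds the aspartate protease gene BnaA07g33550D, called higher, and the F-box gene BnaA07g35640D, called lower.

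Autophagy encloses cell contents in vesicles that fuse with the vacuole, and all 3 listed genes of its machinery were lower in the long pool. BnaC05g45400D encodes ATG8h, one of the ubiquitin-like proteins that coat the vesicle membrane. It stood at 0.233, 0.231 and 0.0874 CPM in the long and 0.706, 0.786 and 1.18 CPM in the short libraries. The log2 change was -2.21 ± 0.49 (SE; edgeR adjusted p = 0.0155), and the call remained only without short replicate 1 or short replicate 2 (-2.41 to -1.92 over the 6 fits). ATG8e (BnaA04g26080D) had a log2 change of -1.24 ± 0.39 and ATG12a (BnaC06g07010D), part of the machinery that attaches ATG8, one of -2.23 ± 0.74 (SE; edgeR adjusted p = 0.153 and 0.344). The pools of ATG12a overlapped, with 0.622, 0.297 and 0.0437 CPM in the long and 2.75, 1.47 and 0.443 CPM in the short libraries. DESeq2 called ATG12a (adjusted p = 0.0457), as did edgeR with the replicate block (adjusted p = 0.0197), whereas limma-voom did not (adjusted p = 0.403). Among the fits that left out 1 library, ATG12a was called only without short replicate 3 (-3.05 to -1.55 over the 6 fits).

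**Figure D3:**
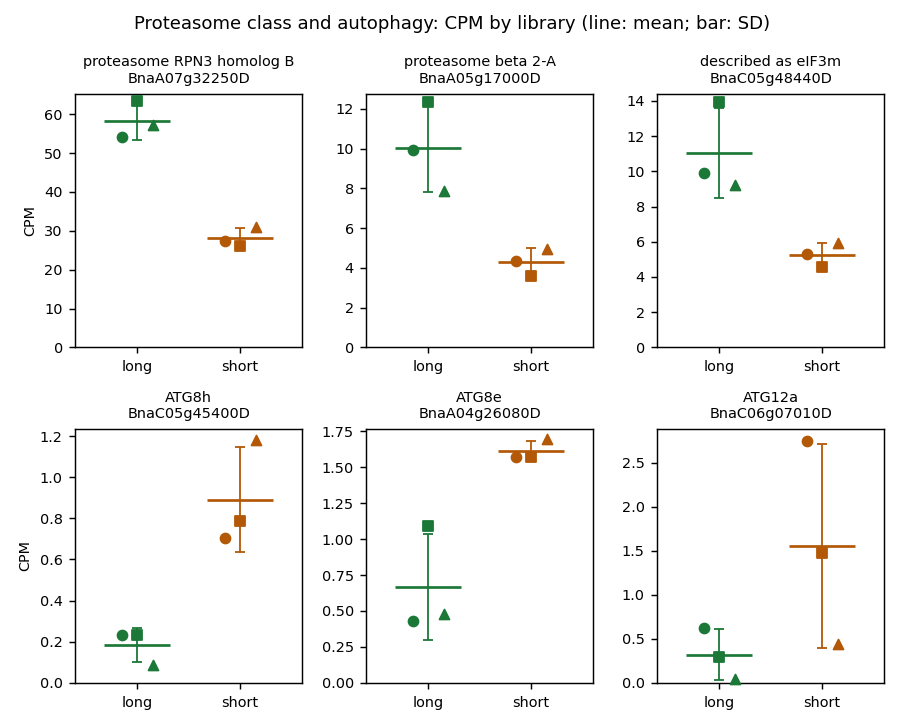
CPM (y axis, from 0, own scale per gene) of the 3 genes of the proteasome class (top) and the 3 autophagy genes (bottom) by library; circles, squares and triangles are replicates 1, 2 and 3, the line is the mean and the bar the SD. The long libraries lie above the short ones in the top row, and below them for ATG8h and ATG8e, whereas the libraries of ATG12a overlap.

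Subtilases are serine proteases that are mostly secreted into the cell wall, and 6 were listed, 2 higher and 4 lower. BnaA02g29970D (A02, 21759297 to 21761579) had the smallest p of all 100 genes. It is a copy of AT5G67360, whose product in Arabidopsis acts on pectin in the seed coat by way of the wall. It stood at 1.28, 1.39 and 2.05 CPM in the long and 8.52, 7.998 and 7.16 CPM in the short libraries. All short libraries were above all long ones, and the log2 change was -2.33 ± 0.26 (SE; edgeR adjusted p = 4.95e-05). The second listed copy of this locus, BnaAnng18730D, was read 1 time in the long pool against 35 in the short, 33.7-fold (95% exact counting interval 5.67 to 1369.9). BnaA03g57660D (AT2G04160) and BnaC05g51310D (AT1G32960) were called lower, with log2 changes of -1.09 ± 0.23 and -1.87 ± 0.42 (SE). The call of BnaA03g57660D remained only without long replicate 1 or short replicate 3 (-1.29 to -0.92 over the 6 fits). That of BnaC05g51310D ended without long replicate 1, long replicate 2 or short replicate 1 (-2.14 to -1.50). BnaA03g60380D, at the locus of ALE1, which is needed for the embryo cuticle in Arabidopsis, was called higher. It stood at 3.38, 4.49 and 3.23 CPM in the long and 1.69, 1.57 and 1.59 CPM in the short libraries, a log2 change of 1.199 ± 0.27 (SE; edgeR adjusted p = 0.0183). That call remained only without long replicate 3 or short replicate 1 (1.03 to 1.29 over the 6 fits).

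The cysteine protease class held 15 genes, 4 higher and 11 lower, with 3 and 9 called. Only 5 of them are papain-like proteases, 1 higher and 4 lower. The others are described as inhibitors or were counted to the Ulp1 family, by description or by their locus AT2G07240. Among the papain-like ones were copies of CEP1 and CEP2, KDEL-tailed proteases that in Arabidopsis act in programmed cell death. CEP1 (BnaC03g27700D; C03, 16154207 to 16156124) stood at 4.12, 3.60 and 3.19 CPM in the long and 16.6, 9.57 and 7.67 CPM in the short libraries. For this gene the log2 change was -1.63 ± 0.27 (SE; edgeR adjusted p = 0.00180). CEP2 (BnaA06g16650D) stood at 0.816, 0.364 and 0.568 CPM in the long and 4.08, 2.02 and 3.32 CPM in the short libraries. The log2 change of this gene was -2.43 ± 0.38 (SE; edgeR adjusted p = 0.000998). BnaA09g28660D, at AT4G11310, had a log2 change of -2.37 ± 0.43 (SE; edgeR adjusted p = 0.00380). Each of these 3 genes was called in all 6 fits that left out 1 library, and of the 3 only CEP2 kept its call with TMM over the listed genes. The other copy of AT4G11310, BnaCnng08320D, went the other way at low counts, with 13, 11 and 5 counts in the long and 2, 3 and 1 in the short libraries.

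The listed senescence markers were lower in the long pool, as were 4 of the 5 papain-like proteases and 65.6% of all listed genes. Of 10 senescence loci looked up, 7 were not listed. The 3 listed loci (NAP, ORE1 and SAG12) had 9 genes, all lower in the long pool and 7 of them called. Over all tested genes 43.5% were called lower. Their summed level was 12.4 to 13.0 CPM in the long and 56.3 to 73.4 CPM in the short libraries. The part of senescence in the differences of the proteases was not tested. The left-out SAG12 copy BnaA02g24130D, itself a papain-like protease, had a log2 change of -4.45 ± 0.42 (SE). Of the 3 xylem loci, 2 were listed with 3 genes, all called lower, with summed levels of 27.3 to 39.8 CPM in the long and 51.1 to 96.9 CPM in the short libraries. Among the 3 green tissue loci only LHCB1.1 was listed, and it was called higher, at 223 to 254 CPM in the long and 86.1 to 150 CPM in the short libraries. Of the 5 pollen and stamen loci only PI was listed, lower and not tested, at 0.0330 to 0.194 CPM in the long and 0.308 to 0.432 CPM in the short libraries. None of the 13 seed loci and none of the 8 fruit wall loci was listed, and as uncalled genes were not analysed here, the tissue label could not be checked against them. The part of these tissues in the results was not tested.

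Cystatins, the natural inhibitors of papain-like proteases, are placed in the same class and differed in direction among themselves. In the protease classes, 6 genes are described as inhibitors, 5 of them cystatins and 1 a serpin, with 2 called higher and 2 lower. BnaA05g26660D, a copy of the cystatin gene CYS6, had the highest level of the tested genes in the protease classes, 20.7 FPKM in the long and 10.3 FPKM in the short pool (means, n = 3). It stood at 15.7, 18.7 and 18.1 CPM in the long and 8.83, 8.58 and 8.71 CPM in the short libraries. The log2 change was 1.01 ± 0.18 (SE; edgeR adjusted p = 0.00337). Its neighbour BnaA05g26650D, another CYS6 copy 3.02 kb away on A05, had a log2 change of 1.49 ± 0.31 (SE; edgeR adjusted p = 0.0114), and its call ended without long replicate 2, long replicate 3 or short replicate 1 (1.26 to 1.78 over the 6 fits). The cystatin genes CYS2 (BnaA04g28930D) and CYS7 (BnaC03g01960D) were called lower, with log2 changes of -1.98 ± 0.44 and -1.27 ± 0.32 (SE). Each of these calls remained only without short replicate 2, at -2.14 to -1.80 and -1.52 to -1.01. The serpin gene BnaA09g11820D was read 3 times in the long pool against 36 in the short, 11.6-fold (95% exact counting interval 3.65 to 58.7).

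Ulp1-type proteases cut small modifiers such as SUMO or NEDD8 from their targets, and 5 genes of this family were listed. All 4 listed copies of AT2G07240 were called lower. BnaC03g57880D (C03, 47233669 to 47235109) had 0 counts in every long library and 33, 31 and 48 in the short ones, at least 36.0-fold lower with the long pool at that floor of 3 counts. BnaC09g26050D, read 0 times against 62, was at least 19.9-fold lower. The copies BnaC05g27800D and BnaCnng35530D were read in both pools, with log2 changes of -2.34 ± 0.45 and -2.07 ± 0.49 (SE; edgeR adjusted p = 0.00601 and 0.0284). The call of BnaCnng35530D remained only without short replicate 3 (-2.36 to -1.73 over the 6 fits). In the other direction, DEN1 (BnaA10g29630D), a protease that removes NEDD8, the modifier of cullins, stood at 1.52, 0.925 and 1.704 CPM in the long and 0.235, 0.410 and 0.295 CPM in the short libraries. Its log2 change was 2.10 ± 0.42 (SE; edgeR adjusted p = 0.00816), with the call ending without long replicate 1 (1.93 to 2.35 over the 6 fits).

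**Figure D4:**
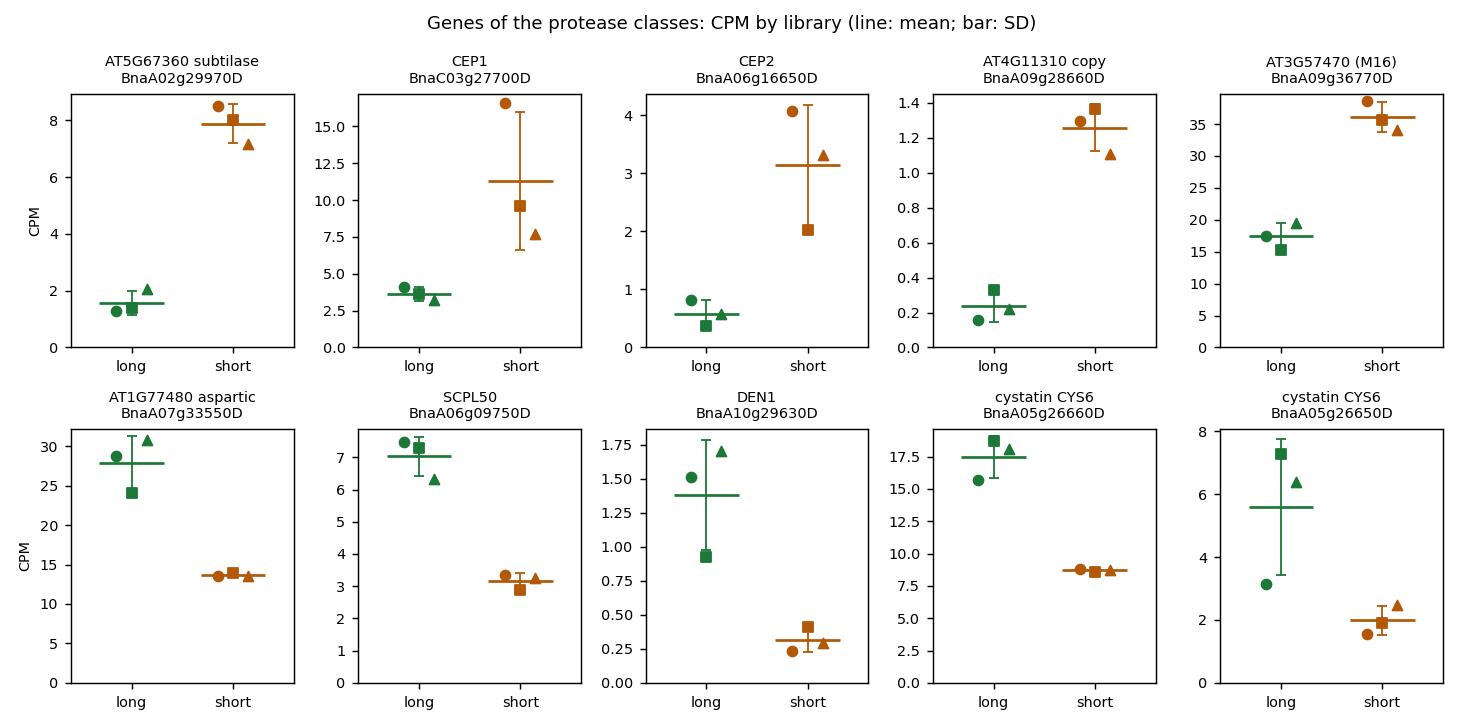
CPM (y axis, from 0, own scale per gene) of 10 genes of the protease classes by library; circles, squares and triangles are replicates 1, 2 and 3, the line is the mean and the bar the SD. In the top row every short library lies above every long one, and in the bottom row, which includes both neighbouring cystatin genes, every long library lies above every short one.

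All 5 metalloprotease genes were lower in the long pool, and 2 were called. BnaA09g36770D, described as a peroxisomal M16 zinc protease, was the most strongly expressed of them by FPKM. It stood at 17.5, 15.3 and 19.5 CPM in the long and 38.6, 35.6 and 34.01 CPM in the short libraries. The log2 change was -1.05 ± 0.17 (SE; edgeR adjusted p = 0.00122). The other 4 belong to loci of matrix metalloproteinases, enzymes of the cell surface. Of these, BnaC05g19230D (AT1G24140) had a log2 change of -1.57 ± 0.37 (SE; edgeR adjusted p = 0.0257), called without short replicate 3 but in no other fit that left out 1 library (-1.76 to -1.36). Both copies of AT2G45040, BnaC04g03940D and BnaA05g04520D, had log2 changes of -1.50 ± 0.43 and -1.45 ± 0.49 (SE; edgeR adjusted p = 0.0935 and 0.243).

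Of the 4 aspartate proteases, 1 was called higher and 2 lower. BnaA07g33550D (AT1G77480; A07, 22990082 to 22992211), described as similar to the rice protease Asp1, stood at 28.8, 24.1 and 30.8 CPM in the long and 13.5, 13.9 and 13.6 CPM in the short libraries. The log2 change was 1.03 ± 0.17 (SE; edgeR adjusted p = 0.00180), and the call was made in all 6 fits that left out 1 library. BnaA01g17170D, described as a nepenthesin, stood at 4.16, 2.21 and 3.41 CPM in the long and 9.26, 6.80 and 8.56 CPM in the short libraries. For this gene the log2 change was -1.33 ± 0.25 (SE; edgeR adjusted p = 0.00531). Both copies of AT2G39710, whose description names the aspartic protease PCS1, were lower. BnaC04g05720D had a log2 change of -1.59 ± 0.35 and BnaA05g05860D one of -1.55 ± 0.46 (SE; edgeR adjusted p = 0.0152 and 0.121). The Arabidopsis locus of PCS1 itself is a different one, and it was looked up and not listed. The call of BnaC04g05720D remained only without long replicate 3 or short replicate 1 (-1.76 to -1.40 over the 6 fits).

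The 4 genes of the serine protease class were 2 higher and 2 lower. The carboxypeptidase-like gene SCPL50 (BnaA06g09750D) was called higher, at 7.46, 7.30 and 6.33 CPM in the long and 3.34, 2.87 and 3.25 CPM in the short libraries. The log2 change of this gene was 1.16 ± 0.22 (SE; edgeR adjusted p = 0.00550). BnaA01g36020D, at the locus AT1G61130, had a log2 change of 1.65 ± 0.48 (SE; edgeR adjusted p = 0.110). The rhomboid gene RBL2 (BnaA09g12900D), a protease of membranes, had a log2 change of -1.26 ± 0.28 (SE; edgeR adjusted p = 0.0158), which lost its call without long replicate 1, long replicate 3 or short replicate 1 (-1.51 to -1.14 over the 6 fits). The fourth gene of the class is the serpin gene already described.

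Most genes of the small AAA and unspecified classes were also lower, as were 65.6% of all listed genes. Of the 6 AAA genes, 5 were lower and 1 higher, and 5 are described as relatives of BCS1, a chaperone of mitochondria and not a protease. BnaC04g00800D was the one AAA gene called, with a log2 change of -1.21 ± 0.27 (SE; edgeR adjusted p = 0.0179), and lost its call without long replicate 1, long replicate 2 or short replicate 3 (-1.28 to -1.12 over the 6 fits). BnaC01g08150D, the one higher, had a log2 change of 1.36 ± 0.46 (SE; edgeR adjusted p = 0.250). All 5 unspecified genes were lower. BnaAnng22580D, which encodes peptidase 3 of the chloroplast family that trims the photosystem protein D1, stood at 4.47, 6.05 and 6.60 CPM in the long and 17.5, 15.4 and 15.4 CPM in the short libraries. Its log2 change was -1.50 ± 0.20 (SE; edgeR adjusted p = 0.000317). BnaC01g10360D, described as acetylornithine deacetylase, an enzyme of arginine synthesis, had one of -1.34 ± 0.31 (SE; edgeR adjusted p = 0.0250), called only without short replicate 1 or short replicate 2 (-1.46 to -1.13 over the 6 fits).

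In an allotetraploid such as rapeseed, one Arabidopsis locus can have several copies. The 100 genes belong to 84 Arabidopsis loci, and 12 loci had 2 or more listed copies, 28 genes in all. All copies went one way at 9 of these loci, lower at 8 and higher at AT4G01270. Among all listed genes 65.6% were lower, and the agreement of copies was not tested against that share. Copies differed in direction at AT3G04660, AT3G12490 and AT4G11310, all with at least 1 copy that was not tested or whose pools overlapped. Of the loci whose copies went one way, AT3G28510 and AT5G67360 also had a copy that was not tested. Copies share sequence, and reads that match several copies equally were not used by the authors, so copies are not independent.

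For 6 of the 100 genes the libraries of the pools overlapped. The CYS6 copy BnaC07g11630D stood at 1.52, 1.98 and 2.58 CPM in the long and at 0.706, 25.8 and 1.59 CPM in the short libraries. Without short replicate 2 its log2 change turned from -2.22 ± 1.54 (SE) to 0.81. BnaC01g33650D, described as the RING ligase MBR2, stood at 6.22, 32.5 and 4.15 CPM in the long and 4.003, 4.61 and 3.73 CPM in the short libraries. Without long replicate 2 its log2 change went from 1.80 ± 0.92 (SE) to 0.33. Neither was called (edgeR adjusted p = 1 for both), although the authors' deposited table lists both. The F-box gene BnaC04g42700D had 0 counts in all long libraries and 32, 56 and 0 counts in the short ones. The other genes with overlap were ATG12a and the AAA genes BnaA09g09530D and BnaAnng18700D.

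**Figure D5:**
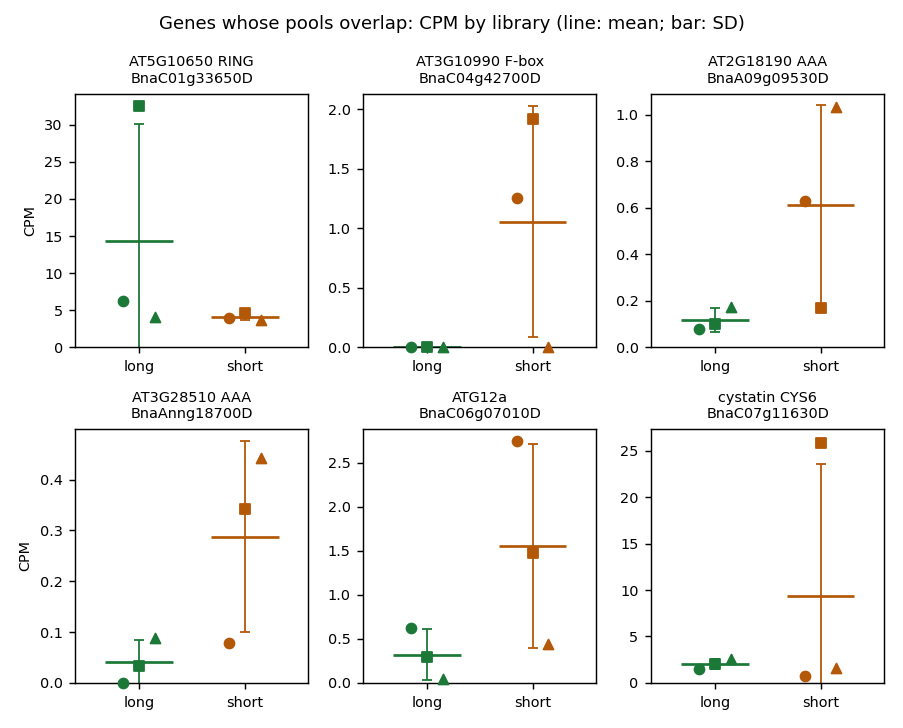
CPM (y axis, from 0, own scale per gene; SD bars that would pass below 0 are cut there) by library of the 6 genes whose pools overlap; circles, squares and triangles are replicates 1, 2 and 3, the line is the mean and the bar the SD. Replicate 2 of the long pool stands alone for BnaC01g33650D and replicate 2 of the short pool for BnaC07g11630D.

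Some of these genes lie close together. Of the 6 pairs within 200 kb of each other on a chromosome or scaffold, 5 had the same direction. On the unplaced scaffold Cnn_random, all 11 listed genes between 1.7 and 2.3 Mb were higher in the long pool, and 3 of them are RING class genes (BnaCnng01780D, BnaCnng02010D and BnaCnng02420D). On C07 between 43 and 45 Mb, 8 of 11 listed genes were lower, among them BnaC07g45350D, BnaC07g45620D and the BT5 copy. On A03 between 2 and 5 Mb 18 of 29 were lower, with 2 of the 5 protein degradation genes there higher and 3 lower. Among all listed genes 65.6% were lower. These windows were chosen after the values were seen. All 9 genes left out in the first 6 Mb of C02 were higher, and 7 were called. The one nearest the limit was the AAA gene BnaC02g07460D (4055920 to 4058016), with a log2 change of 1.31 ± 0.31 (SE), and the first gene kept on C02 was the RING gene BnaC02g42830D (45256507 to 45258565), with one of -1.53 ± 0.43 (SE). Of the kept genes on the A subgenome, 19 of 54 were higher, and of those on the C subgenome 10 of 46, against 504 of 1505 and 607 of 1719 of all listed genes.

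A list of 86 Arabidopsis loci of protein degradation was looked up, among them organ size regulators such as DA1, hormone receptors such as TIR1, the core of SCF ligases and autophagy genes. Only 8 of these loci were listed, with 11 genes, 9 of which are among the 100 genes. The others were both copies of the BTB gene BOP1, a regulator of leaf and organ boundaries. BnaC04g24530D was called lower, at 1.32, 1.09 and 1.005 CPM in the long and 2.47, 2.60 and 2.80 CPM in the short libraries. BnaA04g03040D was also lower, at 0.0389 to 0.0661 CPM in the long and 0.295 to 0.392 CPM in the short libraries, too few reads for the test. None of the 8 organ size loci, the 11 hormone F-box loci, the 7 light loci or the 4 SCF core loci was listed. Genes that the authors did not call were not analysed here, so their levels are not given. A gene that is not listed may still differ by a log2 fold change below 1.0 in size.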

How the data were processed

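RNA-seq counts and FPKM values per gene were deposited by the authors in one table for 3 long-silique and 3 short-silique libraries, with their own FDR, p-values and log2 fold changes. Per the labels' design text, reads were filtered and mapped to the Darmor reference, only uniquely mapped reads were used, and genes were selected at an FDR of at most 0.05 and a p of at most 0.005. The submitters' processing notes name edgeR and DESeq2. Neither aligner nor reference release is given in the sources used here. Values were present for 3248 genes, all called by the authors, and 59362 rows were blank. Of the 3248 genes, 211 had an authors' p above 0.005. The smallest authors' log2 fold change among the 3248 was 1.0 in size.

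Library totals were recovered from the counts and the deposited FPKM and served as library sizes, and 3 counts in one library correspond to 0.0991 to 0.131 CPM. Genes were fitted with edgeR 4.0.16 (R 4.3.3, quasi-likelihood, robust, filterByExpr), and p-values were adjusted by Benjamini-Hochberg over the 65264 genes that the authors tested, a number recovered from their p-values and FDR. The script was tested on simulated counts. Alternatives were TMM or DESeq2 1.42.0 size factors over the listed genes, DESeq2, limma-voom 3.58.1, no filter, a replicate block, other adjustments and thresholds, and leaving out each library.

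The members and all lists were chosen with earlier results of these data known. Named in full were, per class, up to 3 higher and 3 lower genes with the smallest p among those without overlap, genes read from 1 pool only, copies of one locus, and the most strongly expressed ligase and protease. Other genes were named after their values were seen. Arabidopsis names come from the table's locus column and descriptions. Figures were drawn with matplotlib 3.10.9.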

Additional observations from a re-analysis of the deposited data

How the results depend on the processing

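The counts of calls changed with scaling and with single libraries. Of the 100 genes, 12 were called higher and 40 lower, against 24 and 8 with TMM and 24 and 8 when size factors of DESeq2 were taken from the listed genes, which moved log2 fold changes by a median of 0.78 and 0.93. For the ligases the counts were 10 and 4 with either scaling in place of 3 and 19, and for the protease classes the lower count was 4 with either in place of 17. All 32 genes that lost a call with TMM had been called lower. The assumption of TMM that most genes are unchanged is not met by a list of called genes. Adjusting over the genes tested here gave 22 higher calls, 9 of them ligases. An adjusted p of at most 0.01 left 23 lower calls in all, 1 higher ligase and 9 lower protease genes. Putting back the 11 left-out genes gave 19 higher calls, 7 of them ligases. Leaving out 1 library at a time gave 6 to 12 higher and 23 to 35 lower calls in all, 0 to 3 and 11 to 17 for ligases and 4 to 7 and 10 to 15 for proteases, and 25 of the 52 calls were made in all 6 such fits. DESeq2, limma-voom and no filter kept each of these counts within 1.5 times. With the replicate block there were 25 lower calls in all and 10 among proteases, and ATG12a (BnaC06g07010D) gained a call (edgeR adjusted p = 0.0197). Deviations of libraries with the same number correlated at 0.041, 0.010 and 0.0059, and those with different numbers at -0.035 to 0.026. Taken from means of 3 libraries over genes selected on this contrast, these values cannot decide whether the libraries were paired. Among the named genes that were tested, the log2 fold change of BnaC07g11630D alone reversed, ranging from -2.76 to 0.81 over these fits, the latter without short replicate 2. Except for the fewer libraries and the genes put back, the cause was not tested. Genes under 1 FPKM, 46 of the 100, rest on few reads, and 19 genes had too few for a test.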
